A study of Homo sapiens with 12 samples.

Results

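The genes described here are 38 interferon-stimulated and RNA-sensing genes of HEK293 cells: sensors of double-stranded or foreign RNA, the transcription factors of the interferon response, and the antiviral effectors that interferon induces. They were taken by name from the gene count tables of a study of the splicing factor RBFOX1. The experiment 1 table held 37 of them among 37184 rows, and the experiment 2 table held all 38 among 31910 rows. In both tables OAS1, OAS2, OAS3, TRIM25 and STAT2 (5 of them) stood under a gene identifier without a symbol and were named from it, and the others were matched by symbol. XAF1 was not analysed in experiment 1.

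HEK293 is a transformed line from human embryonic kidney. Total RNA was sequenced from 12 libraries in 4 groups of 3. The induced groups of both experiments were HEK293_Flp In/TO cells that descend from 1 Rbfox2 deficient clone and carry HA-Flag-tagged mouse Rbfox1 under an inducible promoter, treated with 0.5 µg/ml doxycycline for 2 weeks. The uninduced group of experiment 1 was the same line, not treated. The parental group of experiment 2 was unmodified HEK293 given doxycycline, and the dose and time are stated only for the inducible line. Doxycycline and RBFOX1 induction therefore cannot be told apart in experiment 1. In experiment 2 RBFOX1, RBFOX2 and clonal history all set the arms apart and cannot be told apart from each other. The labels do not say whether replicates were separate cultures, so the p-values reflect the scatter among these libraries, which may be purely technical.

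In the interferon system, helicases in the cytosol recognise viral RNA and signal through IRF3 and IRF7, which switch on interferon genes. Secreted interferon then acts on receptors whose signal activates STAT2 and IRF9, and the complex that holds them binds the interferon-stimulated response element in the promoters of effector genes. HEK293 cells are widely used as a host for reporters of this pathway, and some interferon-stimulated genes are transcribed at a low basal level without added interferon.

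The response element has the core GAAA, then any 2 bases, then GAAA again. RefSeq promoter windows (250 bases before to 50 after an annotated start, build GRCh38.p14) were at hand for 29 of the 38 genes, some with several starts, which gave 37 windows. The core, on either strand, occurred in 23 of the 37 windows (62.2%), against 3.57% of 35116 windows of the same length over all genes. Counted by gene, 19 of 29 (65.5%) had it, against 4.38% of 27305 genes. The gamma-activated site core TTCNNNGAA (N is any base), which reads the same on both strands, occurred in 27.0% of the windows of these genes and in 7.66% of all windows. IFITM2, IRF3, IRF7, IFIT2, MX2, OAS2, OASL, DHX58 and USP18 had no window in the table. The following windows are examples, with and without the core, from genes called in experiment 1 (ISG15, BST2 and ZC3HAV1) or in experiment 2 (IFITM3, HERC5 and IFI44L), and capitals mark every match to this core or to its reverse complement, overlapping matches merged. ISG15 lies at chr1:1013247-1013546 on the + strand, BST2 at chr19:17405581-17405880 on the - strand, IFITM3 at chr11:320811-321110 on the - strand, HERC5 at chr4:88456869-88457168 on the + strand, IFI44L at chr1:78620198-78620497 on the + strand and ZC3HAV1 at chr7:139109671-139109970 on the - strand.
ISG15: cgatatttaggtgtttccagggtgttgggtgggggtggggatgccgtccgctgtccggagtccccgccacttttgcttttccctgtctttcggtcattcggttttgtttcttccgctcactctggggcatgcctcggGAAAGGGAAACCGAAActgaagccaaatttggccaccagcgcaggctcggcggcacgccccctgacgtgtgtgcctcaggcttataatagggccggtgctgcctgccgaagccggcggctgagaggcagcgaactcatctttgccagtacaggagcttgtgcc
BST2: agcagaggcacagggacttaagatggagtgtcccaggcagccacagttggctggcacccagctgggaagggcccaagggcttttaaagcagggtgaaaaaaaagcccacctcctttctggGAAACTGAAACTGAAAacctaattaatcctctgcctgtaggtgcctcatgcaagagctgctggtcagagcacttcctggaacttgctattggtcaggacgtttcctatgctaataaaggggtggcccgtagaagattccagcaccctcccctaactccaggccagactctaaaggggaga
IFITM3: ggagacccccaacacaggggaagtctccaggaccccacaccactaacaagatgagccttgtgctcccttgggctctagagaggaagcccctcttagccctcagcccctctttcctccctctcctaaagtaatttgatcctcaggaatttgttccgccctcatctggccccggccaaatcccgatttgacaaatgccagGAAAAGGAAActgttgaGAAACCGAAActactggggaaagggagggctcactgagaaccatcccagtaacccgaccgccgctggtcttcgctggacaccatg
HERC5: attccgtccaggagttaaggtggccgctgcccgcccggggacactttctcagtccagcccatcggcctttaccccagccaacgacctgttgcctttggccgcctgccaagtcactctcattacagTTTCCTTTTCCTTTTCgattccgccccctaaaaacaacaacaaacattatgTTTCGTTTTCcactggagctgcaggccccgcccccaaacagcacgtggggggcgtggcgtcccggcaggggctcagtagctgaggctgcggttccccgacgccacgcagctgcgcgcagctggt
IFI44L: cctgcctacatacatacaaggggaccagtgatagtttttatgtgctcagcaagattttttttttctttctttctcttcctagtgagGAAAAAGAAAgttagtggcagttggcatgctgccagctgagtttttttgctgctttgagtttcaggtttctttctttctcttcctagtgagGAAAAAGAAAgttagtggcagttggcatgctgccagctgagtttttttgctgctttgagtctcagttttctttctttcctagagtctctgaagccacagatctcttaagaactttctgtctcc
ZC3HAV1: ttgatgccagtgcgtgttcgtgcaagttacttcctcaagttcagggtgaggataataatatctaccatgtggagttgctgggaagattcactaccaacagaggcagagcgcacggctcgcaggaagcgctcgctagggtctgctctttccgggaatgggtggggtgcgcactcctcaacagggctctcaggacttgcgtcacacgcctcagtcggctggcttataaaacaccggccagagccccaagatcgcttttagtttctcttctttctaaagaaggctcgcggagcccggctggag
ISG15 and BST2 each hold 2 overlapping matches between 130 and 97 bases before the start, HERC5 holds 3, IFITM3 and IFI44L 2 each, and ZC3HAV1 none. A match is a run of letters and not a shown binding site.

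**Figure D1:**
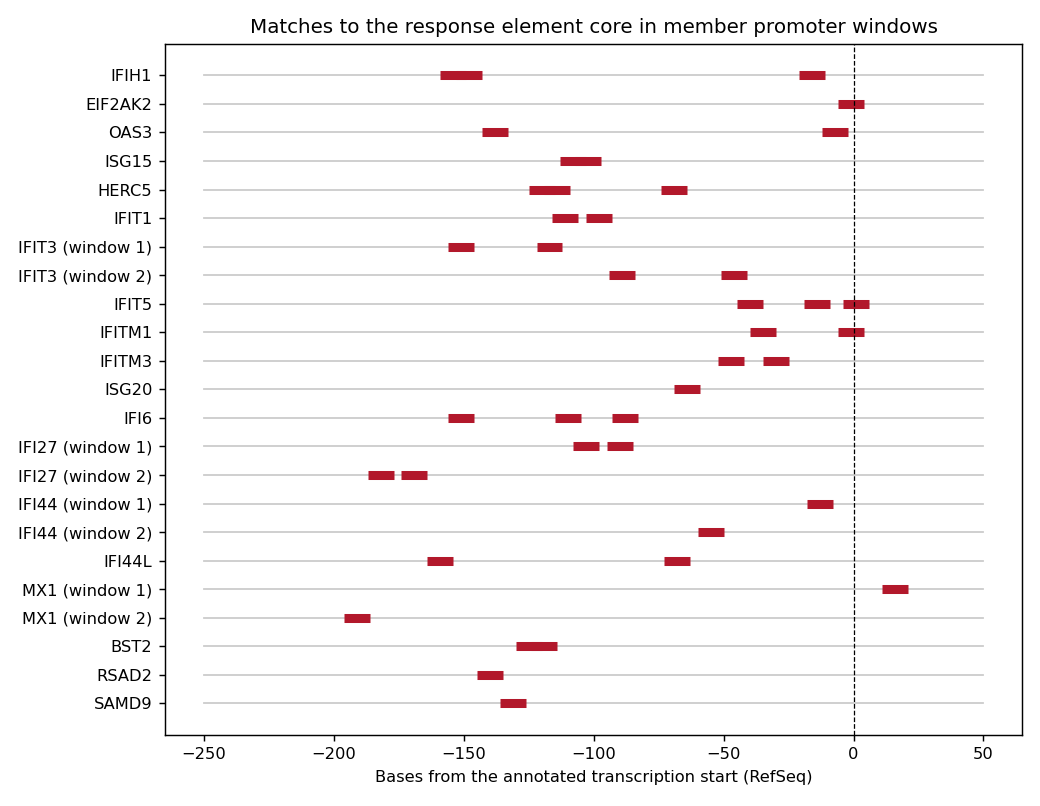
Position of each match to the response element core (red) in the RefSeq promoter windows that hold at least 1, as bases from the annotated start (x axis), 1 row per window. Of the 37 windows, 23 are drawn; most matches lie upstream of the start, and MX1 has 1 window with a match downstream of it.

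The labels and the libraries were checked first. RBFOX1 stood at 39.4, 39.5 and 38.8 CPM in the induced libraries, against 4.41, 3.64 and 3.26 CPM in the uninduced libraries, with a log2 fold change of 3.37 ± 0.10 (SE; adjusted p = 6.63e-07) (edgeR quasi-likelihood test, Benjamini-Hochberg). In experiment 2 it stood at 39.8, 39.7 and 41.0 CPM in the induced libraries and at 0 reads in all parental libraries, at least 1825-fold higher against a floor of 3 reads over the group. The transgene is mouse Rbfox1, while the genome build named is human. These values may therefore hold transgene reads placed on the human gene, and are not a measure of human RBFOX1 alone. RBFOX2 was lower in the induced libraries of experiment 2, with a log2 fold change of -1.85 ± 0.06 (SE; adjusted p = 8.51e-17) (edgeR), and not called in experiment 1, with a log2 fold change of 0.00 ± 0.07 (SE; adjusted p = 0.988). CPM are counts per 1000000 of effective library size, set within each experiment; the totals were 34025315 to 55298749 counts. Uninduced library 3 stands apart from its group: its counts differed from those of the other uninduced libraries by a chi-square of 31.6 and 36.2 per degree of freedom, against 5.22 to 17.5 within other pairs of replicates. The mitochondrial ribosomal RNA MT-RNR2 took 21.7% to 24.1% of counts in experiment 1 and 0.0286% to 0.0638% in experiment 2. Of 10 genes listed as typical of HEK293, 8 had a row and 6 to 8 exceeded 1 CPM in each library. PTPRC, the pan-leukocyte marker, reached at most 0.0532 CPM. The summed level of 8 fibroblast markers was 4.15 to 4.86 CPM in induced against 6.45 to 6.86 CPM in uninduced libraries, and 3.79 to 4.14 CPM in induced against 9.78 to 11.6 CPM in parental libraries. COL1A2, DCN and THY1 were at 0 in all induced libraries of experiment 1. The summed level of the haematopoietic markers (7 with a row in experiment 1, 8 in experiment 2) was 1.76 to 2.13 CPM in induced against 2.64 to 2.94 CPM in uninduced libraries, and 2.37 to 3.22 CPM in induced against 2.24 to 2.36 CPM in parental libraries. Most of it was VAV1, the 1 marker above 1 CPM in each library, while SPI1 was at 0 in the induced libraries of experiment 2 and CD3E at 0 in the parental ones. The part of these differences in the results below was not tested.

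On induction in experiment 1, ISG15 and ZC3HAV1 rose, BST2, MX1, OAS3 and UBE2L6 fell, and 24 of the interferon genes were not called. Of 37 genes with a row, 30 had enough reads to be tested, so 6 of 30 (20%) were called at an adjusted p under 0.05. Over all 18978 genes tested the share was 20.9% (10.5% higher and 10.4% lower), so the share among the interferon genes was near the background. Their median log2 fold change was 0.01, against 0.00 over all genes tested. The level summed over 37 of the genes was 513 to 548 CPM in induced and 487 to 520 CPM in uninduced libraries, and these ranges overlap. In bulk RNA a change in the number of cells that express a gene and a change in RNA per cell cannot be told apart.

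ISG15, a ubiquitin-like protein that is conjugated to other proteins after interferon, had 2.56, 2.39 and 2.00 CPM in the induced libraries, against 1.43, 1.10 and 0.927 CPM in the uninduced libraries. Every induced value was above every uninduced value, with a log2 fold change of 1.00 ± 0.18 (SE; adjusted p = 0.00678) (edgeR, as in all tests below). ZC3HAV1, a zinc-finger antiviral protein that binds CpG-rich RNA and directs its decay, had 66.9, 74.6 and 68.2 CPM in the induced libraries, against 46.0, 43.1 and 47.5 CPM in the uninduced libraries. The groups do not overlap, induced being above uninduced, with a log2 fold change of 0.62 ± 0.06 (SE; adjusted p = 0.000617). These calls held under each of 11 alternatives, whether a normalization, a tool, a filter, a block or a left-out library was changed. Of the 9 protein-coding genes tested in experiment 2 that lie nearest to ISG15 in gene order, 8 were also called higher in experiment 1. Over all genes tested in experiment 1 that share was 10.5%. The part of this neighbourhood in the value of ISG15 was not tested.

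BST2, also known as tetherin, holds budding virions at the cell surface. It had 2.60, 2.53 and 2.77 CPM in the induced libraries, against 5.47, 6.82 and 4.27 CPM in the uninduced libraries. No library crossed over, the induced ones being below the uninduced ones, with a log2 fold change of -1.08 ± 0.16 (SE; adjusted p = 0.00309), and this call also held under each of the 11 alternatives. MX1, a dynamin-like GTPase that blocks the replication of RNA viruses, had 2.58, 2.66 and 2.40 CPM in the induced libraries, against 3.36, 3.55 and 3.46 CPM in the uninduced libraries. Induced libraries were below all uninduced libraries, with a log2 fold change of -0.44 ± 0.11 (SE; adjusted p = 0.0211). OAS3, which makes oligoadenylates that activate RNase L when it binds double-stranded RNA, had 3.08, 3.43 and 3.11 CPM in the induced libraries, against 4.13, 4.53 and 4.55 CPM in the uninduced libraries. All 3 induced libraries lay below the 3 uninduced ones, with a log2 fold change of -0.46 ± 0.10 (SE; adjusted p = 0.0156). UBE2L6, the conjugating enzyme for ISG15, had 5.56, 4.89 and 5.08 CPM in the induced libraries, against 8.19, 7.87 and 5.45 CPM in the uninduced libraries. Its groups overlap, since uninduced library 3 fell below the highest induced library, and its log2 fold change of -0.48 ± 0.15 (SE; adjusted p = 0.046) had the highest adjusted p of the 6 calls. MX1, OAS3 and UBE2L6 lost their call without induced library 1 (adjusted p up to 0.0921, 0.0745 and 0.146 over the alternatives), as they did without induced library 3 and without uninduced library 2, so that BST2 was then the 1 gene of this group still lower. UBE2L6 also lost it without uninduced library 1 and without induced library 2, and under 6 of 11 alternatives in all.

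Among the genes not called in experiment 1, IFI6 and SAMD9 came nearest. IFI6, a protein of the endoplasmic reticulum that restricts flaviviruses, had 5.66, 5.21 and 5.39 CPM in the induced libraries, against 4.77, 4.32 and 3.82 CPM in the uninduced libraries. Its groups do not overlap, and its log2 fold change of 0.33 ± 0.11 (SE; adjusted p = 0.0538) missed the threshold, which it passed under 3 of 11 alternatives (library totals, no filter and without uninduced library 1), with an adjusted p down to 0.0461. SAMD9, a host restriction factor for poxviruses, had 16.6, 16.8 and 17.0 CPM in the induced libraries, against 14.6, 13.3 and 15.4 CPM in the uninduced libraries. Its log2 fold change of 0.22 ± 0.07 (SE; adjusted p = 0.0612) missed it as well, and without uninduced library 3 it passed with an adjusted p of 0.015. The IFIT genes, which bind viral RNA ends, had log2 fold changes between -0.12 (IFIT3) and 0.09 (IFIT2), and the IFITM genes between -0.17 (IFITM3) and 0.18 (IFITM2). The transcription factors tested, IRF1, IRF3, IRF9 and STAT2, lay between -0.13 and 0.15. HERC5, the ligase that joins ISG15 to newly made proteins, stood at 54.2, 53.8 and 51.5 CPM in induced and 51.6, 52.7 and 55.2 CPM in uninduced libraries, a log2 fold change of -0.00 ± 0.05 (SE; adjusted p = 0.998).

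**Figure D2:**
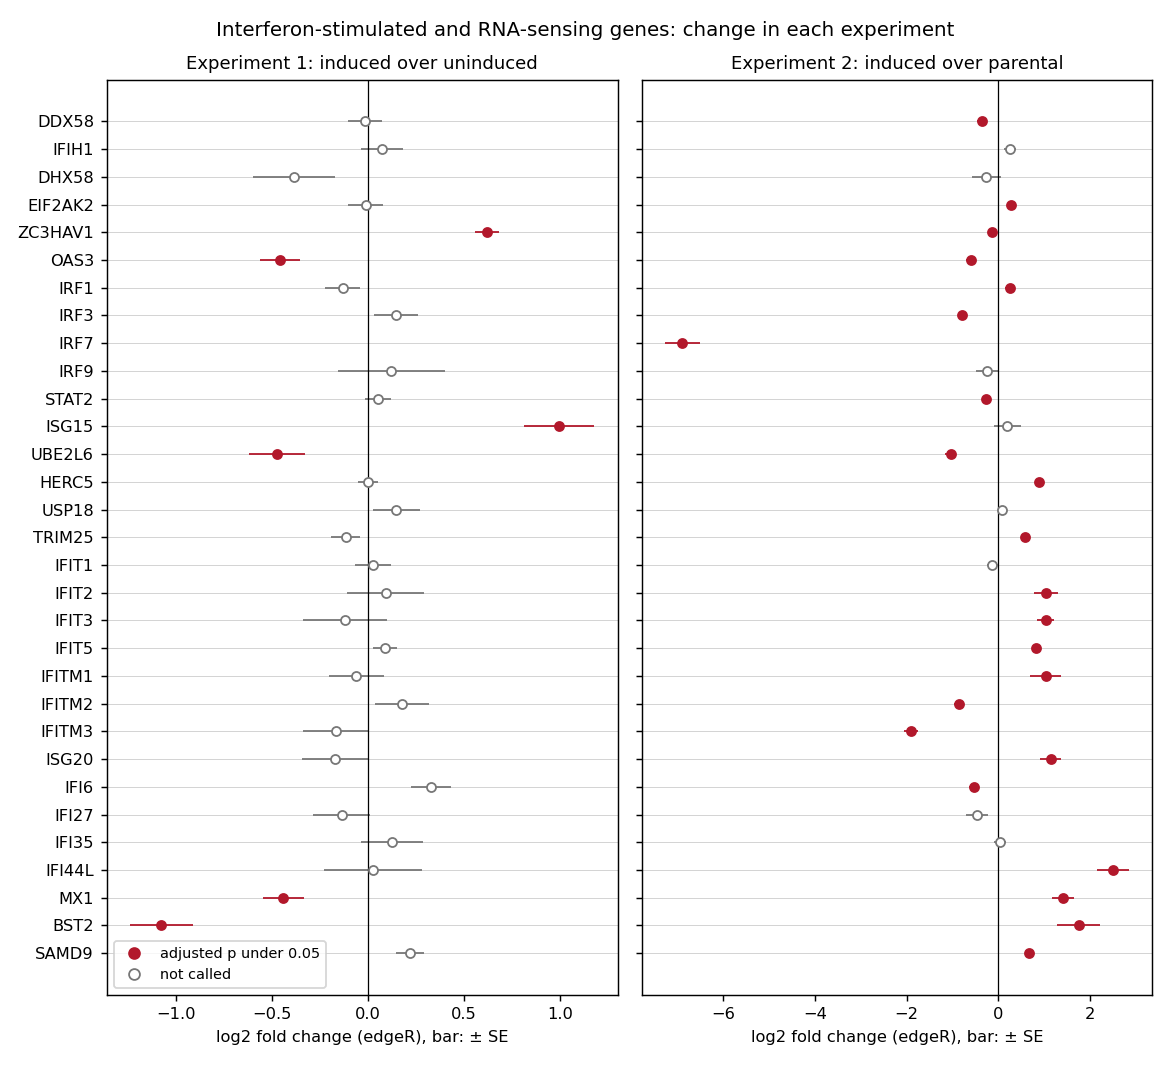
Log2 fold change (x axis) of each gene tested in at least 1 experiment, induced over uninduced on the left and induced over parental on the right, with bars of ± SE; filled red points passed an adjusted p under 0.05 (edgeR). The x axes differ in range: 6 of 30 genes are filled on the left and 23 of 31 on the right, and the fitted value of IRF7 rests on 4 reads in the induced libraries.

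Against parental cells, in experiment 2, 23 of the genes were called, in both directions. BST2, MX1, IFI44L, ISG20, HERC5 and 3 of 4 IFIT genes were higher in the induced line, and IRF7, IFITM3, IFITM2, UBE2L6 and IRF3 were lower. Of 31 genes tested 13 were higher and 10 lower, so 74.2% were called, against 65% over all 17945 genes tested (32.1% higher and 32.9% lower). With a background this wide the count itself says little about the interferon genes, and their median log2 fold change of 0.08 stands beside -0.01 over all genes. The summed level over the same 37 genes was 746 to 758 CPM in induced and 668 to 682 CPM in parental libraries. Abundant genes weigh most in this sum. EIF2AK2 averaged 173 CPM in induced and 144 CPM in parental libraries, while ZC3HAV1 went the other way, with 165 and 183 CPM. The rise of the sum does not rest on these genes alone. HERC5, TRIM25, IFIT5 and SAMD9, given below, were also higher in induced libraries, and IRF3 and IFITM2 were lower.

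Of 6 sensors tested, 1 rose and 3 fell, all by less than 1 on the log2 scale. DDX58 encodes RIG-I, the helicase that senses triphosphate ends of viral RNA. It had 7.56, 7.70 and 6.13 CPM in the induced libraries, against 9.59, 8.50 and 9.20 CPM in the parental libraries. Every induced value was below every parental value, with a log2 fold change of -0.35 ± 0.11 (SE; adjusted p = 0.00637), and without induced library 3 the adjusted p was 0.051. EIF2AK2, the kinase PKR that stops translation when it binds double-stranded RNA, had 178, 176 and 166 CPM in the induced libraries, against 140.1, 143 and 148 CPM in the parental libraries. The groups do not overlap, induced being above parental, with a log2 fold change of 0.27 ± 0.05 (SE; adjusted p = 4.47e-05). ZC3HAV1 had 164, 163 and 169 CPM in the induced libraries, against 175, 189 and 185 CPM in the parental libraries, a fall that is small against its level, with a log2 fold change of -0.15 ± 0.05 (SE; adjusted p = 0.00975). OAS3 had 6.79, 6.62 and 7.60 CPM in the induced libraries, against 9.69, 11.7 and 10.4 CPM in the parental libraries. No library crossed over, the induced ones being below the parental ones, with a log2 fold change of -0.60 ± 0.10 (SE; adjusted p = 2.5e-05), the same direction as in experiment 1. IFIH1, the helicase that senses long double-stranded RNA, had 4.63, 4.25 and 4.08 CPM in the induced libraries, against 3.66, 3.55 and 3.66 CPM in the parental libraries, which do not overlap, but its log2 fold change of 0.25 ± 0.13 (SE; adjusted p = 0.0931) was not called. DHX58, which modulates both helicases, stood at 0.719, 0.738 and 0.613 CPM in induced and 0.541, 1.10 and 0.834 CPM in parental libraries and was not called.

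Of 5 transcription factors tested, IRF1 rose and IRF3, IRF7 and STAT2 fell, IRF7 to a few reads. IRF7 amplifies interferon production after the first wave. It had 0.0266, 0.0791 and 0 CPM in the induced libraries, against 5.65, 4.35 and 3.79 CPM in the parental libraries. These are 4 reads over the induced libraries against 618 over the parental ones, 128-fold lower in induced cells with a counting interval of 49.8 to 471 (exact, covering counting error only). The fitted log2 fold change of -6.90 ± 0.38 (SE; adjusted p = 1.27e-12) depends on how reads near 0 are handled. Of the 10 tested genes nearest to IRF7 on chromosome 11, 7 were called lower and 0 higher, against 32.9% and 32.1% of all genes. In experiment 1 IRF7 had 2 reads in all induced and 4 in all uninduced libraries. IRF3, the factor that is phosphorylated when RNA is sensed, had 15.8, 17.5 and 20.2 CPM in the induced libraries, against 32.4, 30.9 and 29.0 CPM in the parental libraries. Induced libraries were below all parental libraries, with a log2 fold change of -0.79 ± 0.08 (SE; adjusted p = 2.84e-08). STAT2, a subunit of the factor that binds the response element, had 33.5, 35.9 and 30.8 CPM in the induced libraries, against 40.0, 41.6 and 39.6 CPM in the parental libraries. All 3 induced libraries lay below the 3 parental ones, with a log2 fold change of -0.27 ± 0.06 (SE; adjusted p = 0.000707). IRF1 had 6.82, 8.28 and 8.08 CPM in the induced libraries, against 5.95, 6.97 and 6.36 CPM in the parental libraries, and these groups overlap; its log2 fold change of 0.26 ± 0.11 (SE; adjusted p = 0.0393) was lost under 7 of 11 alternatives. IRF9, the partner of STAT2, was not called (-0.25 ± 0.25).

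In the ISG15 conjugation system HERC5 and TRIM25 rose and UBE2L6 fell. HERC5 had 73.5, 71.3 and 79.3 CPM in the induced libraries, against 40.2, 40.2 and 41.4 CPM in the parental libraries. Every induced value was above every parental value, with a log2 fold change of 0.88 ± 0.06 (SE; adjusted p = 9.28e-12). TRIM25, a ubiquitin ligase that acts on RIG-I, had 88.4, 95.3 and 89.3 CPM in the induced libraries, against 60.7, 62.5 and 58.3 CPM in the parental libraries. The groups do not overlap, induced being above parental, with a log2 fold change of 0.59 ± 0.05 (SE; adjusted p = 2.37e-09). UBE2L6 had 4.66, 4.93 and 5.65 CPM in the induced libraries, against 11, 8.96 and 11.4 CPM in the parental libraries. No library crossed over, the induced ones being below the parental ones, with a log2 fold change of -1.04 ± 0.11 (SE; adjusted p = 7.16e-08). ISG15 itself was not called, at 1.14, 0.897 and 0.666 CPM in induced and 0.738, 0.883 and 0.735 CPM in parental libraries. USP18, the protease that removes ISG15, stood at 21.5, 21.3 and 21.4 CPM in induced and 20.8, 19.7 and 20.4 CPM in parental libraries and was not called either.

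The IFIT genes lie in a cluster on chromosome 10. IFIT2 had 1.33, 1.19 and 1.41 CPM in the induced libraries, against 0.541, 0.596 and 0.755 CPM in the parental libraries. Induced libraries were above all parental libraries, with a log2 fold change of 1.04 ± 0.27 (SE; adjusted p = 0.00173). IFIT3 had 2.66, 3.45 and 2.45 CPM in the induced libraries, against 1.30, 1.54 and 1.33 CPM in the parental libraries. Again the groups do not overlap, with a log2 fold change of 1.03 ± 0.19 (SE; adjusted p = 7.28e-05). IFIT5 had 60.2, 55.7 and 57.9 CPM in the induced libraries, against 33.7, 31.4 and 33.3 CPM in the parental libraries. All 3 induced values were higher, with a log2 fold change of 0.82 ± 0.06 (SE; adjusted p = 5.05e-11). IFIT1, which lies between IFIT3 and IFIT5, stood at 7.85, 7.96 and 6.40 CPM in induced and 8.75, 7.04 and 8.48 CPM in parental libraries, with a log2 fold change of -0.13 ± 0.11 (SE; adjusted p = 0.336), and was not called.

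The IFITM genes, whose membrane proteins block the entry of enveloped viruses, moved both ways, with IFITM1 higher and the other 2 lower. IFITM3 had 1.41, 1.5 and 1.44 CPM in the induced libraries, against 6.0, 4.97 and 5.44 CPM in the parental libraries. All 3 induced libraries lay below the 3 parental ones, with a log2 fold change of -1.91 ± 0.15 (SE; adjusted p = 4.32e-10). IFITM2 had 10.9, 12.5 and 9.94 CPM in the induced libraries, against 18.4, 23.0 and 19.4 CPM in the parental libraries. Every induced value was below every parental value, with a log2 fold change of -0.87 ± 0.10 (SE; adjusted p = 9.85e-08). IFITM1 had 1.92, 0.633 and 1.57 CPM in the induced libraries, against 0.836, 0.552 and 0.636 CPM in the parental libraries. Its groups overlap because of induced library 2, and its log2 fold change of 1.03 ± 0.33 (SE; adjusted p = 0.0103) was lost without induced library 1 (adjusted p = 0.0969). These genes are close paralogs and their reads may be split between copies, so each single value is uncertain. Of the 10 tested genes nearest to IFITM3, IFITM1 and IFITM2 among them, 7 were called lower and 2 higher. The part of these neighbourhoods in the falls of IRF7 and IFITM3 was not tested.

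**Figure D3:**
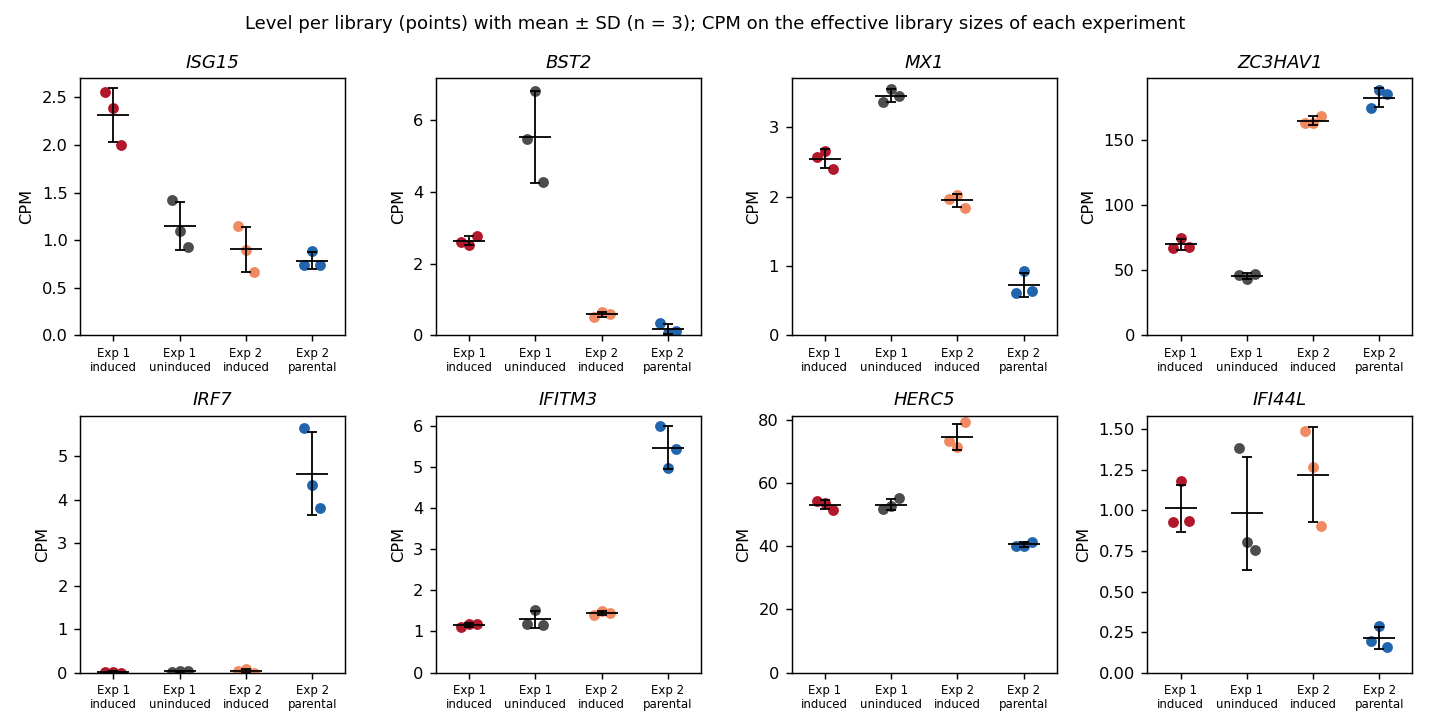
Level in CPM (y axis, from 0, a scale per gene) of 8 genes in the 3 libraries of each group (points), with mean and SD (bars). CPM were set within each experiment, so levels are comparable within experiment 1 and within experiment 2; IRF7 and IFITM3 are high in parental cells, and IFI44L is low in them.

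Of 8 other effectors tested, 5 rose and 1 fell in the induced line. IFI44L had 1.49, 1.27 and 0.906 CPM in the induced libraries, against 0.197, 0.287 and 0.159 CPM in the parental libraries. The groups do not overlap, induced being above parental, with a log2 fold change of 2.5 ± 0.36 (SE; adjusted p = 2.77e-06). Its neighbour IFI44 had too few reads for the test, with 36 reads in induced and 0 in parental libraries, at least 14.5-fold higher against a floor of 3 reads over the group. BST2 had 0.506, 0.659 and 0.586 CPM in the induced libraries, against 0.344, 0.0662 and 0.119 CPM in the parental libraries. No library crossed over, the induced ones being above the parental ones, with a log2 fold change of 1.76 ± 0.47 (SE; adjusted p = 0.00265) that rests on 66 induced and 23 parental reads. MX1 had 1.97, 2.03 and 1.84 CPM in the induced libraries, against 0.615, 0.927 and 0.636 CPM in the parental libraries. Its groups do not overlap, with a log2 fold change of 1.42 ± 0.24 (SE; adjusted p = 2.14e-05). ISG20, an exonuclease that degrades single-stranded RNA, had 1.92, 2.69 and 2.53 CPM in the induced libraries, against 1.33, 0.772 and 1.13 CPM in the parental libraries. Induced libraries were above all parental libraries, with a log2 fold change of 1.15 ± 0.23 (SE; adjusted p = 0.000153). SAMD9 had 44.9, 34.0 and 38 CPM in the induced libraries, against 24.2, 23.6 and 25.5 CPM in the parental libraries. No value of one group reaches the other, with a log2 fold change of 0.67 ± 0.08 (SE; adjusted p = 2.51e-07). IFI6 was the effector that fell, with 6.55, 5.83 and 5.41 CPM in the induced libraries, against 9.0, 8.03 and 8.80 CPM in the parental libraries and a log2 fold change of -0.54 ± 0.11 (SE; adjusted p = 0.000137). IFI27 (-0.47) and IFI35 (0.03) were not called.

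Besides XAF1, which was not analysed there, 7 of the genes had too few reads for the test in experiment 1, and 7 in experiment 2 counting XAF1. RSAD2, which encodes viperin, had 14 reads in induced and 1 in uninduced libraries of experiment 1, 12.9-fold higher with a counting interval of 1.96 to 545. On effective sizes over all 12 libraries RSAD2 stood at 0.140, 0.148 and 0.0238 CPM in these induced libraries, against 0.0228, 0 and 0 CPM in the uninduced ones. The last induced value was thus close to that of uninduced library 1, a spread that the interval leaves out. In experiment 2 it had 15 reads in induced and 4 in parental libraries, 4.52-fold higher (interval 1.44 to 18.7). OASL, which lacks oligoadenylate synthesis, had 6 reads in induced and 10 in uninduced libraries of experiment 1, and 4 reads in induced and 18 in parental libraries of experiment 2. OAS1, OAS2, MX2 and XAF1 stayed at or below 0.0927 CPM in every library that lists them. The interferon gene IFNB1 had 0 reads in the induced and 1 in the uninduced libraries of experiment 1, and IFNL1 had 0 reads in the induced and 2 in the parental libraries of experiment 2.

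Whether the change differed between the experiments was tested in a fit of all 12 libraries. The change in experiment 1 minus that in experiment 2 was called for 23 of 32 genes, 9 higher and 14 lower, against 52.2% of all 19942 genes tested (26.3% higher and 25.9% lower). BST2, MX1 and ZC3HAV1 were called in opposite directions in the experiments. BST2 had log2 fold changes of -1.08 in experiment 1 and 1.76 in experiment 2, a difference of -2.84 ± 0.45 (adjusted p = 3.68e-05). MX1 had -0.44 in experiment 1 and 1.42 in experiment 2, a difference of -1.86 ± 0.22 (adjusted p = 1.38e-06). ZC3HAV1 had 0.62 in experiment 1 and -0.15 in experiment 2, a difference of 0.77 ± 0.08 (adjusted p = 2.16e-07). OAS3 and UBE2L6 were called lower in both. The difference for OAS3 was not called (0.14 ± 0.15, adjusted p = 0.456), and for UBE2L6 it was 0.56 ± 0.19 (adjusted p = 0.0219), the larger fall being in experiment 2. The difference for ISG15, 0.80 ± 0.32 (adjusted p = 0.0428), was lost under 8 of 17 alternatives. Those of EIF2AK2 (13 of 17), IRF1 (7 of 17) and IFITM1 (5 of 17) were lost as well, and that of IRF7 without induced library 1 or 2 of experiment 1, IFIT2 without uninduced library 1 and UBE2L6 without induced library 1 of it.

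The induced line was sequenced in both experiments, so its levels could be compared between them. Of 32 genes tested 12 were higher and 7 lower in induced cells of experiment 2 than in those of experiment 1, against 34.8% and 34.2% of all genes (68.9% in either direction), and experiment and library preparation cannot be told apart in this contrast. IFITM1 had a log2 fold change of -2.45 ± 0.24 (SE; adjusted p = 3.86e-08), BST2 a log2 fold change of -2.37 ± 0.26 (SE; adjusted p = 1.96e-07) and ISG15 a log2 fold change of -1.56 ± 0.21 (SE; adjusted p = 3.71e-06). ZC3HAV1 was higher, with a log2 fold change of 1.04 ± 0.06 (SE; adjusted p = 1.3e-11), and so were IFIT3 (1.40 ± 0.20, adjusted p = 5.09e-06) and SAMD9 (1.01 ± 0.09, adjusted p = 6.65e-09). IFITM3, IFI44L and IRF7 were not called between the induced groups, with adjusted p = 0.504, 0.821 and 0.433. For ISG15, ZC3HAV1, BST2, MX1 and OAS3, 5 of the 6 genes called in experiment 1, the fitted distance between the induced groups exceeded the fitted change within that experiment, a comparison that was not tested.

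Parental cells were also set against all 9 libraries of the inducible line, induced or not, on effective sizes computed over the 12 libraries. For 9 of 32 genes all parental libraries lay above the other 9, and for 9 all lay below. Over all genes this held for 22.3% and 20.1%. ZC3HAV1, DDX58, OAS3, IRF3, IRF7, STAT2, IFITM2, IFITM3 and IFI6 were highest in parental cells. EIF2AK2, IFIH1, HERC5, IFIT5, ISG20, IFI44, IFI44L, MX1 and BST2 were lowest in them. This pattern was chosen after its values were seen. Parental cells were sequenced in experiment 2 alone. The 3 induced libraries of that experiment are among the 9. Their place on the side of the inducible line for these 18 genes was therefore fixed by the choice.

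**Figure D4:**
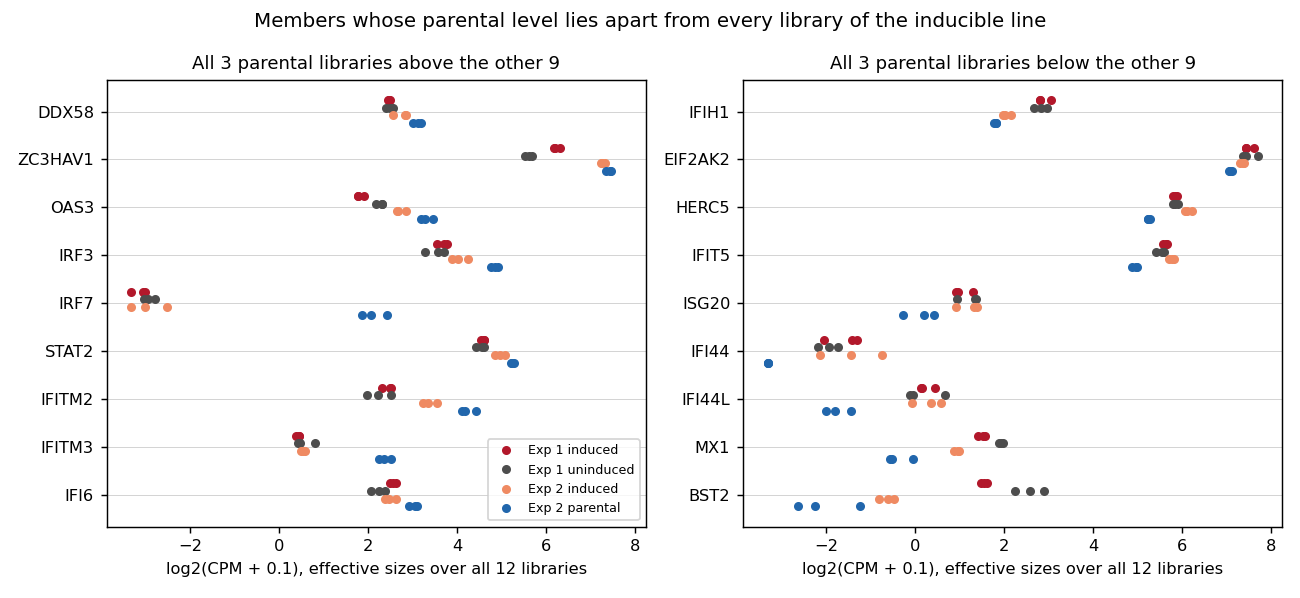
Level of the 18 genes whose parental libraries lie apart, as log2(CPM + 0.1) on effective sizes over all 12 libraries (x axis), 1 point per library and 1 line per group. On the left the 3 parental libraries (blue) are right of the other 9, and on the right they are left of them. IRF7 shows the widest gap, its other 9 libraries being at or near 0. IFI44 was at 0 in the parental libraries.

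The rest of the pathway was described from 3 lists. Of 28 genes of interferon induction and signalling, 23 were tested in experiment 1, of which 2 rose and 2 fell (17.4% called, against 20.9% of all genes), and their median was -0.02 on the log2 scale. RIPK1, a kinase of inflammatory signalling, averaged 6.49 ± 0.338 CPM in induced and 3.87 ± 0.279 CPM in uninduced libraries (SD, n = 3 each), with a log2 fold change of 0.75 ± 0.10 (SE; adjusted p = 0.00156) by edgeR. NFKB1 rose by 0.42 on the log2 scale, and IFNGR1 (-0.26) and JAK1 (-0.17) fell. JAK1 (adjusted p = 0.0392) lost its call under 7 of 11 alternatives, among them each left-out library but uninduced library 3, with an adjusted p up to 0.164. IFNGR1 (adjusted p = 0.0171) lost it under 4 of 11, without uninduced library 1 or 2 or induced library 2 or 3, with an adjusted p up to 0.0791. In experiment 2, 24 were tested, with 13 higher and 6 lower and a median of 0.34, so 79.2% were called, against 65% of all genes (32.1% higher and 32.9% lower). TMEM173 encodes STING, the adaptor of DNA sensing. It had 13.9, 12.8 and 13.0 CPM in the induced libraries, against 1.97, 0.883 and 1.17 CPM in the parental libraries. All 3 induced libraries lay above the 3 parental ones, with a log2 fold change of 3.32 ± 0.16 (SE; adjusted p = 1.85e-13). IRF5 had 6.10, 6.46 and 5.84 CPM in the induced libraries, against 0.762, 0.199 and 0.338 CPM in the parental libraries. All induced values exceeded the parental ones, with a log2 fold change of 3.86 ± 0.24 (SE; adjusted p = 1.16e-11). IFNAR2, a subunit of the type I interferon receptor, rose by 0.81, while RIPK1 (-1.13), the receptor kinase TYK2 (-0.65) and the endosomal RNA sensor TLR3 (-0.58) fell. The call of TLR3 was lost without parental library 3 and without induced library 3 (adjusted p up to 0.159).

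Of 44 other interferon-stimulated genes, 33 were tested in experiment 1, with 1 higher and 6 lower (21.2% called, against 20.9% of all genes) and a median of -0.02. LGALS3BP, a secreted glycoprotein, rose by 0.58, and SLFN5 (-0.53), HELZ2 (-0.48) and DDX60L (-0.48) fell. HELZ2 and DDX60L lost their calls without induced library 1 or 3, and HELZ2 also without uninduced library 2 (adjusted p up to 0.076 and 0.0739). In experiment 2, 36 were tested, with 16 higher and 12 lower (77.8% called, against 65%) and a median of 0.13. SP110, a nuclear body protein, had 12.6, 11.8 and 11.2 CPM in the induced libraries, against 2.70, 2.47 and 2.80 CPM in the parental libraries. Every induced value was above every parental value, with a log2 fold change of 2.15 ± 0.11 (SE; adjusted p = 3.23e-13). LGALS3BP and SLFN5 both rose by 1.85. EPSTI1 had 0.293, 0.606 and 0.320 CPM in the induced libraries, against 8.46, 7.94 and 7.89 CPM in the parental libraries. The groups do not overlap, induced being below parental, with a log2 fold change of -4.30 ± 0.19 (SE; adjusted p = 3.23e-14). APOBEC3G, a cytidine deaminase that mutates retroviral DNA, had 2 reads in induced and 202 in parental libraries, 83.7-fold lower in induced cells with a counting interval of 22.9 to 696. For its relative APOBEC3B the log2 fold change was -1.87.

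Of 14 genes of class I antigen presentation, 12 were tested in experiment 1, with 1 higher (TAPBP, which loads peptides, 0.35) and 1 lower (HLA-B, -0.36), so 16.7% were called, against 20.9% of all genes. HLA-B lost its call there without uninduced library 2 or induced library 3 (adjusted p up to 0.0546). In experiment 2, 13 were tested, with 5 higher and 3 lower (61.5% called, against 65%) and a median of 0.05. NLRC5, the transactivator of class I genes, rose by 0.65 and TAPBP by 0.64. ERAP2, an aminopeptidase that trims peptides for class I molecules, averaged 38.7 ± 1.22 CPM in induced and 27.6 ± 2.74 CPM in parental libraries (SD, n = 3 each), with a log2 fold change of 0.48 ± 0.07 (SE; adjusted p = 3.02e-06) by edgeR. HLA-B and the immunoproteasome subunit PSMB9 each fell by 0.46 on the log2 scale, and PSMB9 lost its call without parental library 2 or 3 or induced library 1 (adjusted p up to 0.106). Reads of HLA-B can be split among near-identical class I genes, so its values are uncertain.

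Circular RNA (circRNA) from these genes was looked at as well. It is counted by back-splice reads, which cross a junction from an exon back to itself or to an upstream exon. The authors' deposited table types 1 entry, from IRF1 in experiment 1, as a ciRNA, an intronic circle. With it, in experiment 1, 12 circRNAs from 7 of the genes had 19 reads, 11 in induced and 8 in uninduced libraries, and none met the minimum of 10 reads in total with a read in 3 libraries. In experiment 2, 17 circRNAs from 8 of the genes had 42 reads, 21 in induced and 21 in parental libraries. HERC5 gave the circRNA with the most reads, chr4:89396992-89400658 on the + strand of GRCh37, which spans 2 exons. It had 3, 0 and 7 reads in induced libraries, against 2, 1 and 4 reads in parental libraries. These groups overlap and its log2 fold change of 0.77 was not called (edgeR adjusted p = 0.887). Most circRNAs of any gene missed the minimum for testing. It was met by 1701 of 29693 in experiment 1 and by 2381 of 26796 in experiment 2. The low counts above therefore say little about these genes in particular. Among all circRNAs 1.68% of 2381 tested were called in experiment 2 (0.714% higher and 0.966% lower). In experiment 1, 0 of 1701 were called by edgeR and 0 by DESeq2, with 77 and 22 at an unadjusted p under 0.05.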

How the data were processed

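Total RNA of 12 HEK293 libraries was sequenced from both ends, per the labels. The authors deposited raw counts per gene and raw counts of back-splice reads per circRNA, 1 table of each kind per experiment. STAR 2.5.2b and GRCh37 are named per the submitters' processing notes; the counter, the circRNA caller and the strand setting are not given in the sources used here, so reads of overlapping or antisense genes may be mixed. The genes and gene lists were chosen with earlier results of these data known. A few genes of the pathway and marker lists are not reported here, and the lists' counts and sums leave them out.

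Counts were tested with edgeR 4.0.16 (quasi-likelihood, two-sided, TMM, filterByExpr with a minimum count of 10, R 4.3.3) over all genes of a table, with Benjamini-Hochberg adjustment and a threshold of 0.05. Differences between experiments were fitted on the 30167 genes that both tables list. A log2 fold change is induced over control. CircRNAs with at least 10 reads and a read in 3 libraries were tested on the effective sizes of the gene table. Ratios of few reads carry exact 95% binomial intervals, which cover counting error only. The steps were tested on simulated data with 1 fixed dispersion for every gene or circRNA and no outlying library, unlike these data. Alternatives were edgeR with DESeq2 size factors, library totals, DESeq2 1.42.0, no filter, a replicate block, a log2 fold change of at least 0.5, other circRNA settings and each library left out. Interferon-stimulated and RNA-sensing genes called in experiment 1 or 2 are given with their value in every library of that experiment. From each pathway list up to 3 called genes per direction with at least 1 CPM in a group are named. Many of these pathway genes are given by fold change or mean only. Genes beside the listed ones on a chromosome were taken after values were seen, from RefSeq gene order, among protein-coding genes tested in experiment 2. No pairing of samples by replicate number was seen, though a weak one could be missed. Same-numbered deviations correlated at 0.194, -0.110 and 0.0194 in experiment 1 and at 0.00479, 0.0296 and -0.0162 in experiment 2. Differently numbered ones correlated at -0.250 to 0.212 in experiment 1 and at -0.0414 to 0.0360 in experiment 2.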

Additional observations from a re-analysis of the deposited data

Results flagged for a closer look

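Each gene below had a change that differed between the experiments in the fit of all 12 libraries, which tested the difference itself. In parentheses stand the log2 fold change in experiment 1 (induced over uninduced) minus that in experiment 2 (induced over parental), and its edgeR adjusted p. The same test was passed by 52.2% of all genes.

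Among the interferon-stimulated and RNA-sensing genes the difference was positive for IFI6 (0.87, 8.36e-05), IFITM2 (1.04, 7.87e-05), IFITM3 (1.74, 2.58e-06), IRF3 (0.93, 4.07e-05), IRF7 (5.91, 0.012), ISG15 (0.80, 0.0428), STAT2 (0.33, 0.00711), UBE2L6 (0.56, 0.0219) and ZC3HAV1 (0.77, 2.16e-07). It was negative for BST2 (-2.84, 3.68e-05), EIF2AK2 (-0.28, 0.0311), HERC5 (-0.88, 4.31e-08), IFI44 (-6.15, 0.00117), IFI44L (-2.47, 0.0001), IFIT2 (-0.95, 0.0169), IFIT3 (-1.16, 0.00258), IFIT5 (-0.73, 1.09e-06), IFITM1 (-1.09, 0.0196), IRF1 (-0.40, 0.026), ISG20 (-1.32, 0.000941), MX1 (-1.86, 1.38e-06), SAMD9 (-0.45, 0.00463) and TRIM25 (-0.71, 4.61e-06). The values of IRF7 and IFI44 involve groups with 0 to 4 reads and depend on how reads near 0 are handled. The calls of EIF2AK2 (13 of 17 alternatives), ISG15 (8), IRF1 (7), IFITM1 (5), IRF7 (2), IFIT2 (1) and UBE2L6 (1) were lost under some alternatives.

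Among the named genes of the 3 pathway lists the difference was positive for APOBEC3B (1.64, 0.000214), APOBEC3G (6.04, 2.27e-05), EPSTI1 (4.37, 1.17e-07), NFKB1 (0.66, 7.22e-06), RIPK1 (1.88, 5.01e-11) and TYK2 (0.73, 1.02e-06). It was negative for ERAP2 (-0.47, 0.000261), IFNAR2 (-1.03, 7.11e-07), IFNGR1 (-0.58, 1.68e-05), IRF5 (-4.08, 1.16e-09), JAK1 (-0.65, 3.54e-07), LGALS3BP (-1.27, 4.57e-10), NLRC5 (-0.95, 3.12e-05), SLFN5 (-2.38, 4.49e-11), SP110 (-2.13, 6.22e-10), TAPBP (-0.28, 0.0173) and TMEM173 (-3.19, 7e-10). The value of APOBEC3G involves a group with 2 reads.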

How the results depend on the processing

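Single genes were followed under the alternatives where an interferon gene had an unadjusted p under 0.05 in a comparison. The named pathway genes were followed as well, in the comparison of experiment 1 or 2 in which they were named. Among these none changed sign, while 1276 single-gene values kept their side of the threshold, 107 lost it and 20 gained it. In experiment 1 the number of genes called was 3971; it was 2327 with the replicate block and 1376 with a log2 fold change of at least 0.5, and 1581 to 5231 with 1 library left out. The interferon genes called lower there were 4, then 2 with the replicate block, 1 with the fold minimum and 1 to 4 with 1 library left out; those called higher were 2, then 4 without the filter and 2 to 3 with 1 library left out. The low counts came without uninduced library 2 (2104 genes, 1 of the interferon genes lower), induced library 1 (1581, 1) and induced library 3 (1678, 1). In experiment 2 the number of genes called was 11670, then 6450 with the fold minimum and 11036 to 11394 with 1 library left out; circRNAs called were 40, then 14 to 41 with 1 library left out (23 without parental library 1, 26 without parental library 3, 14 without induced library 1). Interferon genes called with 1 library left out were 12 to 14 higher and 9 to 11 lower in experiment 2, 6 to 10 and 11 to 14 for the difference between experiments, and 10 to 12 and 5 to 9 between the induced groups.

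The replicate block was fitted although no pairing by replicate number was seen. It took the calls of MX1, UBE2L6 and JAK1 in experiment 1, and experiment 2 had 11628 genes called under it. Library totals moved the all-gene median between the induced groups to 0.18 on the log2 scale, against -0.02, with 8720 genes higher and 4982 lower, against 6932 and 6811. For the parental libraries apart from the inducible line, 11 and 9 genes were found with sizes set per experiment, 11 and 9 with library totals, and 9 to 10 each with 1 library left out; these alternatives were chosen after seeing the data. RSAD2, OAS1, OAS2, OASL, MX2 and XAF1 had too few reads to pass the filter with 3 libraries a group. Changes of these genes were therefore not tested in the main fits. The causes of these shifts were not tested.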

Other observations

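The protein-coding genes nearest in gene order to IRF7, IFITM3, IFIT3, BST2 and ISG15, among those tested in experiment 2, were read as well. These loci were chosen after the values were seen. Around ISG15 on chromosome 1, 8 of the 9 nearest tested genes were called higher in experiment 1 (edgeR), against 10.5% of all genes, with log2 fold changes of 0.60 for NOC2L, 0.30 for KLHL17, 0.41 for HES4, 0.48 for AGRN, 0.46 for C1orf159, 0.59 for SDF4, 0.84 for B3GALT6 and 0.68 for UBE2J2. SAMD11 had 0.32 and was not called (adjusted p = 0.0565). ISG15 itself had 1.00. In experiment 2 the same genes had mixed signs, from -0.83 for KLHL17 to 1.16 for SAMD11. At the other 4 loci 1 or 2 of 9 or 10 neighbours were called higher in experiment 1 and 0 or 1 lower.

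In experiment 2, 7 of 10 neighbours of IRF7 were called lower and 0 higher, with -1.75 for LMNTD2, -0.60 for RASSF7 and -0.63 for TMEM80. Around IFITM3, on the same chromosome, 7 of 10 were lower and 2 higher, with -0.86 for SIGIRR and -0.69 for PTDSS2. IFITM2 is among the lower and IFITM1 among the higher ones. Over all genes 32.9% were lower and 32.1% higher. Around IFIT3 7 of 10 were higher and 0 lower. IFIT2 and IFIT5, described above, are among these 7, and IFIT1 is among those not called. Around BST2 3 of 10 were called each way.

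Beside the IFIT genes on chromosome 10, ACTA2, the smooth muscle actin, and FAS, a death receptor, had log2 fold changes of 4.09 and 3.82 in experiment 2 (adjusted p = 4.71e-16 and 2.86e-18). LIPA, which lies between FAS and IFIT2, had 0.08 and was not called.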
